A study of Mus musculus with 81 samples.

Results

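Complement genes were followed through every group of an RNA-seq study of mouse macrophages that lack histone H3.3. The 9 genes are C1qa, C1qb and C1qc, which encode the chains of C1q, then C4b, C3, Cfb and Cfp, and the receptor genes C3ar1 and C5ar1. They were taken by name out of the 54079 genes shared by the gene lists of all libraries, and no measured value was used to choose them. The 81 libraries come from 5 experiments. The first followed cultured bone marrow cells at day 3, day 5 and day 7 (18 libraries). The second holds bone marrow-derived macrophages (BMDMs) on day 8, untreated or given interferon-γ (IFNγ) for 12 h (12 libraries, of which 10 could be placed). The third holds peritoneal macrophages (6 libraries). In the fourth, BMDMs grew without antibody, with a control antibody or with an antibody to IFNAR1, a chain of the type I interferon receptor (18 libraries). The fifth has 3 sets of WT and cKO BMDMs beside 3 double KOs (27 libraries). Each group had 3 libraries, except both cKO groups of day 8, which had 2.

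All mice derived from a C57BL/6 background, were male and female, and were 8 to 10 weeks old. WT mice were H3f3a fl/fl H3f3b fl/fl, so the controls carried the floxed alleles of both H3.3 genes without cre. The cKO mice had the same alleles and LysM cre/cre, in which cre sits in the Lyz2 locus and is made in myeloid cells, so cKO differed from WT by cre and the loss of Lyz2 as well as by H3.3. The double KOs were cKO mice that also lacked Sting, Mavs or Irf7, and no library of a Sting, Mavs or Irf7 knockout with intact H3.3 was analysed here. The paper lists the cKO and double KO mice as C57BL/6. Its names for the LysM-cre line and the Sting, Mavs and Irf7 knockout lines include a second strain. The Mavs line was backcrossed for at least 6 generations. How much of the second strain remained in each genotype is not stated. BMDMs were grown from bone marrow in medium conditioned by L929 cells, a source of the growth factor M-CSF, for 6 to 8 days. Antibodies were added every 12 h from day 0 and the cells were lysed on day 6.

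Complement is a cascade of blood proteins that marks cells and particles for uptake and lysis. C1q recognises antibody on a target and starts the classical pathway, in which C4 is cleaved and helps to form the enzyme that cleaves C3. Factor B, the product of Cfb, is the protease of the alternative pathway enzyme, and properdin, the product of Cfp, stabilises that enzyme. Fragments released from C3 and C5 act on cells through the receptors encoded by C3ar1 and C5ar1. Macrophages are known as a main source of C1q and make several other components themselves.

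The genes lie on 5 chromosomes, all on the minus strand. In GRCm38, C1qb (4:136880129-136886187), C1qc (4:136889804-136893065) and C1qa (4:136895917-136898803) form a cluster on chromosome 4. C4b (17:34728380-34743882) and Cfb (17:34856374-34862518) are neighbours in the region of the major histocompatibility complex on chromosome 17, where C3 (17:57203970-57228136) lies apart from them. C3ar1 is at 6:122847138-122856161, C5ar1 at 7:16246743-16259540 and Cfp at X:20925454-20931555. All are annotated as protein-coding. Counting limits the values of C4b and Cfb. Of the exon bases of Cfb, 79.5% are also exon bases of the overlapping Gm20547, where a read cannot be assigned to either gene and was not counted, so that Cfb values rest on the other 20.5% and understate its level. C4b has a near copy, C4a, and 34.6% of its transcript stretches of 50 bases (1983 of 5737) also occur in C4a, so some C4b reads may be lost or exchanged between the copies.

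Promoter sequences from RefSeq (GRCm38.p6) could be read for 6 of the 9 genes (all but C1qa, C4b and Cfb). The sequences of C1qb and C1qc are shown because they were the most alike of the 9 in their levels over the groups, and that of C3 because it rose with IFNγ by far more than the other 5. They run 5′ to 3′ on the gene's strand, at chr4:136886201-136886450 (C1qb), chr4:136893066-136893164 (C1qc) and chr17:57228137-57228386 (C3), all on the minus strand. Those of C1qb and C3 end at the RefSeq start, and that of C1qc ends where the gene begins in the annotation used for exons, which is upstream of its RefSeq start. Capitals mark a PU.1-type ETS site in C1qb and C1qc and a C/EBP-type site in C3, each found as its reverse complement.
C1qb: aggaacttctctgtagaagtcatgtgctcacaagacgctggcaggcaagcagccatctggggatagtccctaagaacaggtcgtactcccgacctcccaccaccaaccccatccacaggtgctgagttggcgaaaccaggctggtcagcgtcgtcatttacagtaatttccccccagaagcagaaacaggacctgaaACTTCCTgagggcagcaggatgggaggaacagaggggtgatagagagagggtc
C1qc: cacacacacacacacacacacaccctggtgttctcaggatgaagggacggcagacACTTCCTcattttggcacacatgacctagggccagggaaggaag
C3: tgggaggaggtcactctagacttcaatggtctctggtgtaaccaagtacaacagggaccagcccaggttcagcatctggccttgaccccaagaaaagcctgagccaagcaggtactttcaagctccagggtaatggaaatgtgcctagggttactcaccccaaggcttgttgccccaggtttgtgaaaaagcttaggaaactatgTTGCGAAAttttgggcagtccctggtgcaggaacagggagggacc
The search covered both strands of 300 bases, 250 before and 50 after each start. AGGAAGT, a PU.1-type ETS site, was found in 3 of the 6 (C1qb 53 bases before the RefSeq start, C1qc 195, C5ar1 190 and 72) and in 9.35% of all 32851 promoters of that length. TTNNGCAA, a C/EBP-type site, was found in C3 alone (45 bases before the start) and in 10.8% of all promoters. Neither an interferon-stimulated response element, searched as GAAA and GAAA with 2 bases between (3.44% of all promoters), nor TTCNNNGAA, a gamma-activated site (8.30%), was found in any of the 6. Such matches describe letters in a window and do not show binding.

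Counts on genes ranged from 3614967 to 45581528 per library (median 18333377), lowest in cKO day 8 IFNγ replicate 1. Levels are given as CPM (counts of a gene relative to all counts of its library), scaled between the libraries of an experiment, and tests used edgeR's quasi-likelihood test on the counts, with p-values adjusted by Benjamini-Hochberg over all genes tested and a gene called at an adjusted p under 0.05. The targeted gene H3f3a had 33.6 to 93.8 CPM in WT and 1.21 to 15.3 CPM in cKO libraries, and Lyz2, which carries cre, had at least 4465 CPM in WT and at most 81.9 CPM in cKO libraries. The counted reads of H3f3b were lower in every cKO than in every WT library in the antibody experiment (16.7 to 67.8 against 295 to 468 CPM), in untreated day 8 BMDMs (173 to 187 against 206 to 244 CPM) and in BMDM sets 2 (195 to 210.3 against 243 to 261 CPM) and 3 (187 to 202 against 225 to 274 CPM), and overlapped in the other groups. Tmem173, the gene of STING, fell to 5.01 to 6.10 CPM in the Sting double KO, whereas Mavs in its double KO (37.2 to 37.9 CPM) lay within the range of cKO (36.0 to 51.6 CPM), although it was called lower than the cKO mean (log2 difference -0.26, edgeR adjusted p = 0.00439). Counts over a whole gene also hold reads of exons that a deletion keeps. The paper checked the Mavs deletion by genomic PCR, qRT-PCR and missing exons in read tracks. It reports loss of H3.3 protein by western blot and a deletion of H3f3b that was complete in some cKO samples and partial in others. All 7 macrophage markers were above 1 CPM in every group. Of the day 8 cKO libraries, 2 have a title that contradicts their name as to IFNγ, and both were left out of the groups. Groups labelled as replicates are taken as such, though the labels do not name the animals, so p-values measure the spread between these libraries. In bulk RNA, fewer cells of one type and less RNA per cell cannot be told apart.

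The order of the genes by level differed between cell sources. Per kilobase of exon (mean CPM per kb ± SD, n = 3), WT cells of day 7 had C1qb highest (1228 ± 316), clear of C1qc (511 ± 132) and C1qa (459 ± 117), which did not differ beyond their spread. Cfp (274 ± 63.7), C5ar1 (273 ± 125) and C3ar1 (263 ± 64.5) came next and lay within their spread of one another. C3 was lower (34.7 ± 11.7), and C4b (0.101 ± 0.0757) and Cfb (0.0493 ± 0.0217) were close to the detection limit. WT peritoneal macrophages kept C1qb at the top (4242 ± 731), but Cfp (2752 ± 720.3) and C4b (2386 ± 1189.6) stood next to it, above or level with C1qc (2321 ± 467) and above C1qa (1523 ± 200.0). C5ar1 (174 ± 46.3), C3 (109 ± 34.2), C3ar1 (105 ± 2.80) and Cfb (2.09 ± 0.419) were below all of these.

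C4b set peritoneal macrophages apart most. It had 5884, 16264 and 18616 CPM in the WT and 14014, 11117 and 16186 CPM in the cKO peritoneal libraries, where its rank among all genes by CPM was 4 to 9 in WT and 3 in cKO, while the highest grouped library elsewhere had 20.0 CPM. The peritoneal libraries were made with another kit (SMART-Seq v4 in place of rRNA depletion) and fitted on their own, so this contrast has no test. Cfp also had higher values in peritoneal macrophages (3636 to 6114 CPM) than in the BMDM sets (337 to 710.4 CPM), as had C1qa, C1qb and C1qc. C3ar1 went the other way (372 to 540.4 against 927 to 2009 CPM). The peritoneal markers (5 of 5 above 1 CPM, summed level 5783 to 9621 CPM) summed to at most 217 CPM in the other groups. Mesothelial markers summed to 9.80 to 35.5 CPM in WT and 3.59 to 11.6 CPM in cKO peritoneal libraries, and their part in these levels was not tested.

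**Figure D1:**
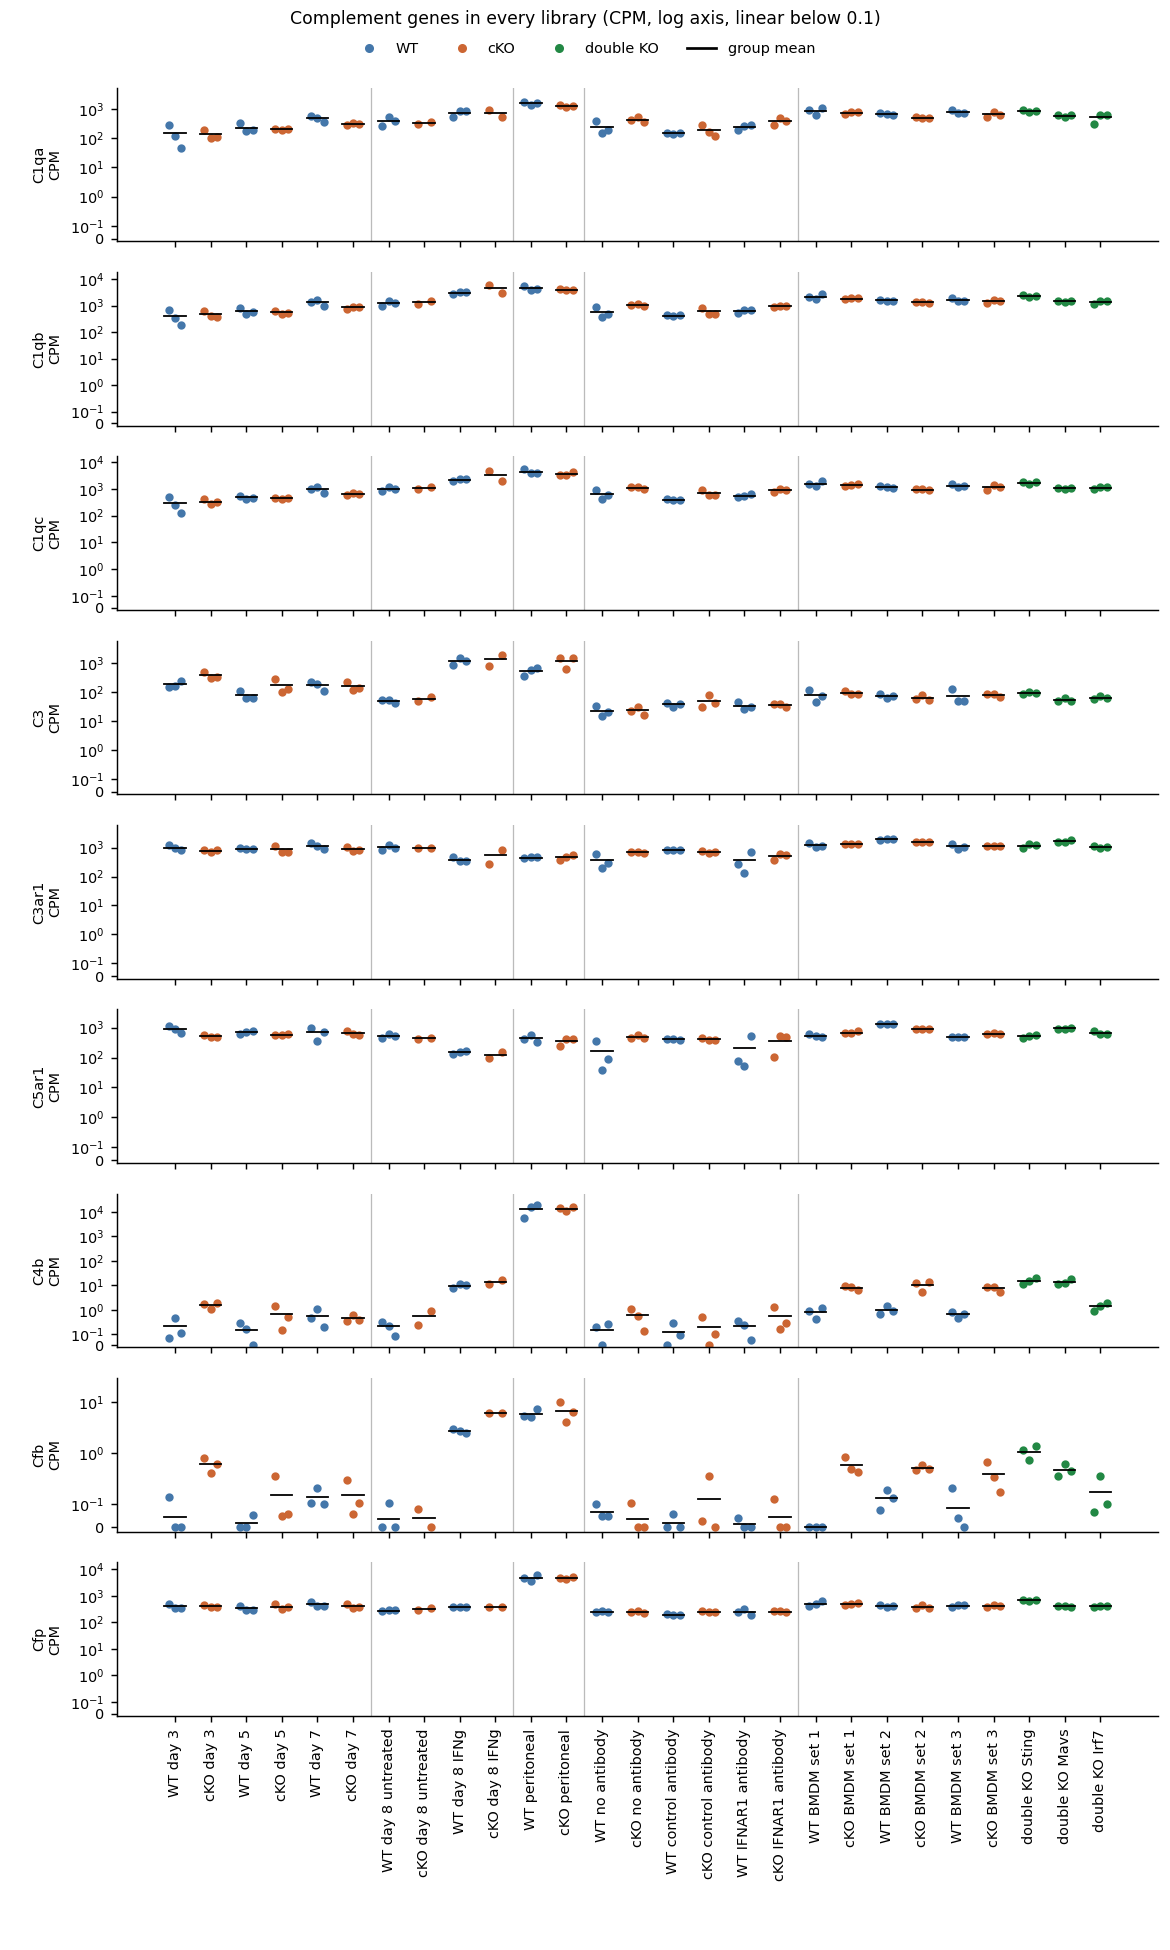
Level of each complement gene in every group (y axis, CPM on a log scale that is linear below 0.1; x axis, groups ordered by experiment, with vertical lines between experiments; each point is 1 library and black lines are group means). The C1q genes, Cfp and the receptor genes stay at 37.1 CPM or more throughout, while C4b runs from 0 in single BMDM libraries to 18616 CPM in a peritoneal one.

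The comparison of cKO with WT asks how these genes differed between the genotypes, which differ by cre and Lyz2 as well as by H3.3. In the time course 8 of the 9 could be tested (Cfb had too few counts). On day 3, 1 of 8 rose and none fell, where 7.73% of all genes were called and 5.19% rose, and the median log2 fold change of the 8 was 0.12 beside 0.04 over all genes. On day 5 (2.83% called) and day 7 (1.4%), edgeR called 0 of 8, DESeq2 also 0, with 2 and 0 at an unadjusted p under 0.05. In day 8 BMDMs edgeR called 0 of 9 untreated (0.612% of all genes called) and 0 of 9 after IFNγ (4.83%), with 0 and 1 at an unadjusted p under 0.05 and none by DESeq2. In peritoneal macrophages (0.971%) it called 0 of 9, with 1 at an unadjusted p under 0.05, C3, which DESeq2 called.

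In the antibody experiment 2 of 8 rose without antibody (7.1% of all genes called, 3.39% higher) and 1 of 8 with control antibody (4.45% called, 2.88% higher). With IFNAR1 antibody (0.675%) edgeR called 0 of 8, DESeq2 called 0, and 2 had an unadjusted p under 0.05. The BMDM sets, which were sequenced most deeply, gave the most calls: 3 of 9 rose in set 1 (34.7% of all genes called, 18% higher), 2 rose and 1 fell in set 2 (21% called, 9.74% higher and 11.3% lower), and 3 rose in set 3 (34.9% called, 16.9% higher). A count of 3 of 9 is near the share of all genes called in sets 1 and 3. The genes called were C4b, Cfb and C5ar1 in each set. The 5 interferon-induced genes followed beside them (Irf1, Irf7, Ifit1, Isg15 and Oasl1) had these counts: 5 of 5 rose on days 3 and 5, none was called on day 7, 4 of 5 rose in each day 8 comparison, 3 of 5 in peritoneal macrophages, 4 of 5 in each antibody arm and 4 of 5 in each BMDM set.

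**Figure D2:**
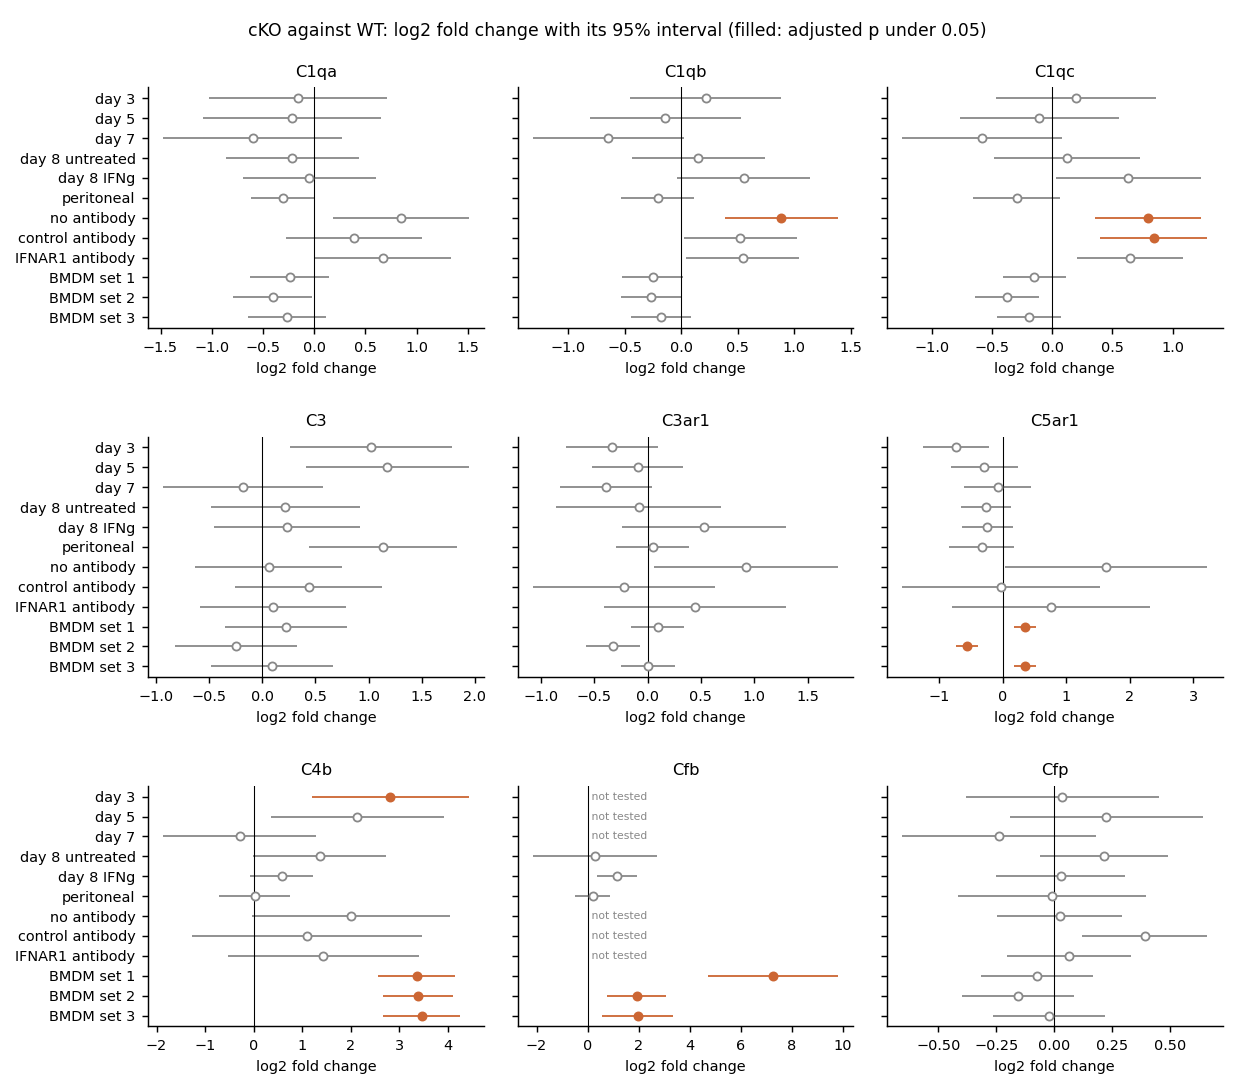
Log2 fold change of cKO over WT for each complement gene (x axis) in each experiment (y axis), with 95% intervals as bars. Filled points have an adjusted p under 0.05. C4b and Cfb lie far to the right in the BMDM sets, C5ar1 is to the left in set 2 and to the right in sets 1 and 3, and Cfb in set 1 is a fitted value that depends on the prior count because WT had no counts.

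The C1q genes rose as WT bone marrow cells matured. C1qb had 668, 348 and 186 CPM on day 3, 783, 487 and 553 on day 5 and 1362, 1667 and 979.9 on day 7 in WT. All day 7 libraries were above all day 3 libraries, and C1qb rose from day 3 to day 7 (log2 fold change 1.74, SE 0.35, edgeR adjusted p = 0.0031). C1qc went from 514, 241 and 131 CPM on day 3 to 1022, 1223 and 715 CPM on day 7 (log2 fold change 1.74, SE 0.35, edgeR adjusted p = 0.0029). C1qa had 294, 118 and 47.0 CPM on day 3 and 586, 500.3 and 346 CPM on day 7 (log2 fold change 1.64, SE 0.45, edgeR adjusted p = 0.0177). Thus 3 of 8 genes rose between these days and none fell, where 23.9% of all genes were called and 12.3% rose. Neither step alone gave a call: from day 3 to day 5 (2.64% of all genes) edgeR called 0 of 8, with 1 at an unadjusted p under 0.05 and 1 by DESeq2 (C3), while C1qc was called without day 3 replicate 1 (edgeR adjusted p = 0.0185), and from day 5 to day 7 (0.238%) 0 of 8, with 5 at an unadjusted p under 0.05 and 2 by DESeq2 (C1qb and C3). With WT day 3 replicate 2 left out, C1qa had an adjusted p of 0.0679, and in a fit of those 2 groups alone it was 0.131, with 0.0627 for C1qb and 0.0727 for C1qc. Over the same days the summed neutrophil markers went from 1684 to 3225 CPM to 76.3 to 133 CPM and the macrophage markers went from 2947 to 4666 CPM to 4115 to 7734 CPM, and their part in the increase was not tested.

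In cKO cells the C1q genes were also higher on day 7 than on day 3, but the difference did not pass the test. C1qb had 613, 401 and 383 CPM on day 3 and 772, 899.7 and 895 CPM on day 7. For each of the 3 genes all day 7 libraries were above all day 3 libraries. The log2 differences were 1.20 for C1qa, 0.88 for C1qb and 0.96 for C1qc, with edgeR adjusted p = 0.0885, 0.103 and 0.0721. Same-numbered cKO libraries of days 3 and 7 deviated together, and with the replicate number as a block the edgeR adjusted p-values were 0.0248, 0.0384 and 0.0364. On day 7 all cKO libraries were below all WT libraries for each C1q gene, yet none of the 3 differences passed the test (C1qb log2 fold change -0.64, SE 0.34, edgeR adjusted p = 0.363). The 3 genes vary together (correlations of 0.93 to 0.98 over the groups), so their separations are not independent of one another. With 3 libraries in each group such separation can also arise without a difference. The genotype effect on day 7 less that on day 3 was -0.44 for C1qa, -0.86 for C1qb and -0.78 for C1qc, and edgeR called 0 of 8 such differences (0.0439% of all genes), with 2 at an unadjusted p under 0.05 (C3 and C4b) and 0 by DESeq2.

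**Figure D3:**
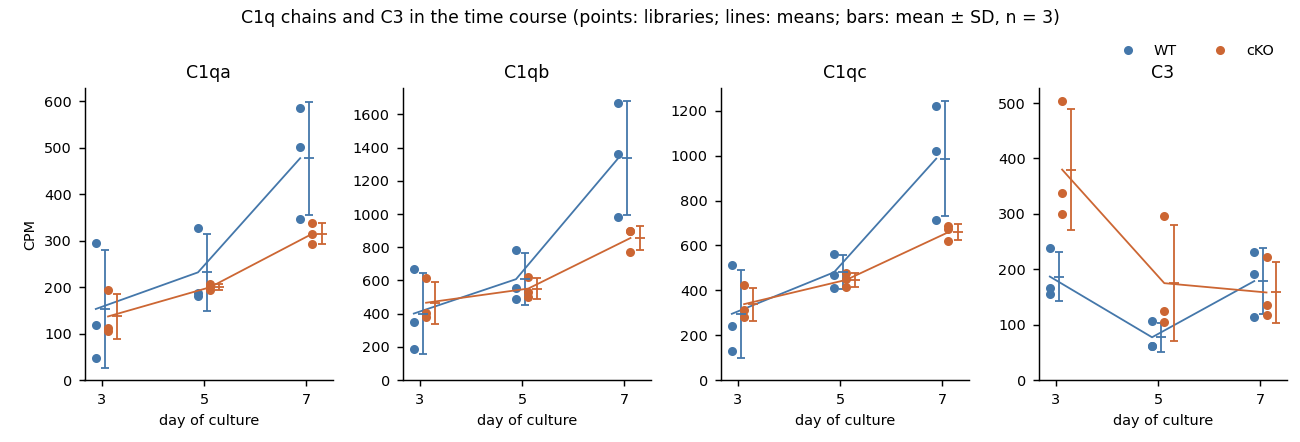
C1q genes and C3 on days 3, 5 and 7 of culture (x axis) in WT and cKO (y axis, CPM; points are libraries, lines join the means, bars are mean ± SD, n = 3). C1qb reaches 979.9 to 1667 CPM on day 7 in WT against 772 to 899.7 CPM in cKO, while mean C3 is lowest on day 5 in WT and highest on day 3 in cKO.

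The C1q genes rose with IFNγ in both genotypes. In WT day 8 BMDMs C1qb went from 997, 1476 and 1200.0 CPM to 2626, 3229 and 3370.1 CPM (log2 fold change 1.33, SE 0.27, edgeR adjusted p = 0.0034). In cKO it went from 1193 and 1529.7 CPM to 6113 and 2907 CPM (log2 fold change 1.73, SE 0.34, edgeR adjusted p = 0.00349). All IFNγ libraries lay above all untreated ones in each genotype, and the higher of the cKO IFNγ values belongs to replicate 1, the library with the fewest counts and the most stromal markers of this experiment's groups. In that library 57.1% of reads were unmapped, against 12.6% to 18.3% in the other day 8 libraries. C1qc rose by 1.16 in WT and 1.67 in cKO on the log2 scale (edgeR adjusted p = 0.00803 and 0.00475). C1qa rose by 0.94 in WT and 1.11 in cKO (edgeR adjusted p = 0.0284 and 0.0396). In a fit of only the 2 cKO groups none of the 3 was called (edgeR adjusted p = 0.115 for C1qa, 0.0832 for C1qb and 0.0981 for C1qc). The C1qa calls also depend on single libraries. In WT the adjusted p was 0.102 without untreated replicate 1, 0.08 without untreated replicate 3, 0.0946 without IFNγ replicate 2 and 0.0931 without IFNγ replicate 3. In cKO it was 0.193 without untreated replicate 1, 0.124 without untreated replicate 2 and 0.131 without IFNγ replicate 1.

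Between genotypes C1q did not pass the test on day 8. After IFNγ the cKO less WT difference was 0.55 for C1qb and 0.63 for C1qc on the log2 scale (edgeR adjusted p = 0.288 and 0.238). Without cKO IFNγ replicate 2, which leaves replicate 1 as the only cKO IFNγ library, both were called (edgeR adjusted p = 0.00608 and 0.00153), as was the difference of the IFNγ effect for C1qc (edgeR adjusted p = 0.0205). With all libraries edgeR called 0 of 9 differences of the IFNγ effect between genotypes (0% of all genes), with 0 at an unadjusted p under 0.05 and 0 by DESeq2. The 95% interval of that difference ran from -0.44 to 1.24 for C1qb on the log2 scale.

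In day 6 BMDMs grown without antibody C1q was higher in cKO. C1qb had 881, 383 and 462 CPM in WT and 1078, 1169 and 945 CPM in cKO (log2 fold change 0.89, SE 0.26, edgeR adjusted p = 0.0473). C1qc had 892, 434 and 578 CPM in WT and 1169.8, 1161 and 974 CPM in cKO (log2 fold change 0.80, SE 0.23, edgeR adjusted p = 0.0448). Neither gene overlapped between the genotypes. Both calls were lost without any 1 library of the arm but WT replicate 1. For C1qb the adjusted p was 0.226 and 0.183 without WT replicates 2 and 3, and 0.119, 0.157 and 0.0899 without cKO replicates 1, 2 and 3. For C1qc it was 0.214 and 0.16, and 0.129, 0.145 and 0.0819, in the same order. C1qa had 384, 147 and 196 CPM in WT and 432, 517 and 354 CPM in cKO (edgeR adjusted p = 0.132, or 0.0149 without WT replicate 1).

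With control antibody C1qc was called as well. It had 417, 374 and 395 CPM in WT and 934, 596 and 601 CPM in cKO (log2 fold change 0.85, SE 0.23, edgeR adjusted p = 0.045), with no overlap. The adjusted p was 0.12, 0.186 and 0.128 without WT replicates 1, 2 and 3, and 0.222, 0.055 and 0.0657 without cKO replicates 1, 2 and 3. Stromal markers summed to 16.3 to 257 CPM in these WT and 207 to 379 CPM in these cKO libraries (Lum at 0 in both), and their part was not tested. With IFNAR1 antibody C1qc had 519, 549 and 635 CPM in WT and 751, 993 and 921 CPM in cKO, which also did not overlap and did not pass the test (edgeR adjusted p = 0.273).

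The IFNAR1 antibody asks whether type I interferon signalling acts on these genes. Against control antibody edgeR called 0 of 8 in WT (9.89% of all genes), with 5 at an unadjusted p under 0.05 and 1 by DESeq2 (C3ar1), and 0 of 8 in cKO (4.03%), with 2 at an unadjusted p under 0.05 and 1 by DESeq2 (C1qa). Of the 5 interferon-induced genes, none was called in WT in this contrast and 1 fell in cKO (Oasl1, log2 difference -1.35, edgeR adjusted p = 0.0408). C1qb went from 441, 387 and 432 CPM with control antibody to 542, 703 and 685 CPM with IFNAR1 antibody in WT, without overlap (log2 difference 0.61, edgeR adjusted p = 0.112). The genotype difference in this antibody effect gave 0 of 8 calls by edgeR (0% of all genes) and by DESeq2, with 0 at an unadjusted p under 0.05. Control antibody against none gave 0 of 8 calls in WT (8.9%; 3 at an unadjusted p under 0.05, and C1qc and C3ar1 by DESeq2) and 0 of 8 in cKO (1.46%; 4 at an unadjusted p under 0.05, and C1qa by DESeq2). These comparisons share the control antibody libraries. In cKO C1qa had 432, 517 and 354 CPM without antibody, 293, 161 and 122 CPM with control antibody and 287, 499 and 379.6 CPM with IFNAR1 antibody. Without cKO control antibody replicate 1 its adjusted p was 0.0285 against no antibody and 0.0355 against IFNAR1 antibody, and that of C1qb was 0.0465 against no antibody. Without WT no antibody replicate 2 the adjusted p of C1qc, control antibody against none in WT, was 0.0407.

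In the BMDM sets the log2 differences of the C1q genes were all negative and none was called. The log2 differences of cKO from WT were -0.24, -0.41 and -0.26 for C1qa in sets 1, 2 and 3, -0.25, -0.26 and -0.18 for C1qb and -0.15, -0.37 and -0.19 for C1qc. WT and cKO did not overlap in set 2 and overlapped in sets 1 and 3. The adjusted p nearest the threshold was that of C1qc in set 2 (edgeR adjusted p = 0.0502). It was called by DESeq2 (0.0384), with the bias-adjusted quasi-likelihood (0.049) and with the stranded counts (0.0413). In a fit of set 2 alone all 3 C1q genes were called lower in cKO (0.00108 for C1qa, 0.00648 for C1qb and 0.00176 for C1qc), as were C1qa and C1qc with no filter (9.51e-04 and 0.00294). C1qb in set 1 was called without WT replicate 2 (edgeR adjusted p = 0.0223). The negative sign in the sets and the positive one in the antibody experiment come from separate fits, and the difference between the experiments was not tested. In peritoneal macrophages C1qb had 5511, 3990.4 and 4344 CPM in WT and 4281, 3934 and 3781 CPM in cKO, which overlapped.

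All C1q genes were higher in the Sting double KO than in the mean of the cKO sets. C1qb had 2489.9, 2164 and 2361 CPM there, above each of the 9 cKO libraries (1217 to 1926 CPM), a log2 difference of 0.62 (SE 0.11, edgeR adjusted p = 1.04e-04). C1qc differed by 0.56 (edgeR adjusted p = 2.81e-04) and C1qa by 0.44 (edgeR adjusted p = 0.029). The labels do not tie a double KO to a set. Against the cKO of set 1 alone the adjusted p was 0.0695 for C1qb, 0.194 for C1qc and 0.52 for C1qa, which was also not called against set 3 alone (0.153). That of C1qa was 0.119 and 0.0968 without Sting replicates 1 and 3, and 0.0533 without cKO set 3 replicate 1. In all, 6 of 9 genes rose and 1 fell with Sting (36.1% of all genes called, 18.9% higher and 17.2% lower), 1 rose with Mavs (8.79% called, 5.55% higher) and 2 fell with Irf7 (9.85% called, 5.5% lower). No C1q gene was called with Mavs or Irf7.

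C4b, the component cleaved by the classical pathway, rose in cKO in each BMDM set, with the lowest adjusted p of the 9 genes. In BMDM set 1 it had 0.867, 0.438 and 1.18 CPM in WT and 9.37, 8.36 and 6.74 CPM in cKO (log2 fold change 3.36, SE 0.40, edgeR adjusted p = 7.35e-07). Set 2 had 0.708, 1.39 and 0.895 CPM in WT and 12.4, 5.38 and 13.96 CPM in cKO (log2 fold change 3.39, SE 0.37, edgeR adjusted p = 2.33e-07), and set 3 had 0.846, 0.468 and 0.651 CPM in WT and 8.23, 8.71 and 5.42 CPM in cKO (log2 fold change 3.47, SE 0.41, edgeR adjusted p = 4.78e-07). WT and cKO did not overlap in any set, and the calls held under every alternative and without any single library. The labels do not say whether the sets share animals, and the deviations of same-numbered libraries of sets 1 and 3 from their group means correlated at 0.386, 0.316 and 0.143 in WT and at 0.242, -0.00684 and 0.142 in cKO. The near copy C4a stayed at 0.329 to 1.10 CPM in all libraries of the sets. Neutrophil markers were also higher in cKO in sets 1 and 3 (224 to 314 against 62.6 to 116 CPM, and 218 to 360 against 71.2 to 126 CPM) but overlapped in set 2 (162 to 183 against 104 to 182 CPM). Dendritic cell markers were higher in cKO in all 3 sets (13.8 to 18.1 against 3.47 to 7.24 CPM, 6.10 to 6.89 against 1.74 to 2.89 CPM and 12.8 to 21.4 against 4.83 to 5.60 CPM). B cell markers were lower in cKO in sets 1 (43.3 to 60.6 against 110 to 188 CPM) and 3 (39.1 to 60.5 against 95.1 to 193 CPM) and higher in set 2 (33.2 to 39.9 against 19.7 to 26.7 CPM). Peritoneal macrophage markers were higher in cKO in set 3 (89.6 to 132 against 28.1 to 62.3 CPM) and overlapped in sets 1 and 2. Of the 6 dendritic cell markers, 0, 0 and 2 were above 1 CPM in every WT library of sets 1, 2 and 3, and 4, 3 and 4 in cKO. Of the 6 B cell markers, 2 were in each of these groups. Gata6, a peritoneal macrophage marker, was at 0 in WT. Some of these sums thus rest on few genes, and the part of such cells in the difference was not tested.

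The labels give no day of culture for the BMDM sets. C4b was rare in the antibody experiment (at most 1.27 CPM) and in the time course (at most 1.99 CPM). On day 3 it had 0.0682, 0.469 and 0.112 CPM in WT and 1.70, 1.09 and 1.99 CPM in cKO (log2 fold change 2.82, SE 0.82, edgeR adjusted p = 0.0467), which rests on 11 and 81 counts in all. This call was lost without WT replicate 1 (edgeR adjusted p = 0.167) or 3 (0.134) and without cKO replicate 1 (0.109), 2 (0.0675) or 3 (0.121), and with the stranded counts (0.0859). On that day neutrophil markers overlapped (1684 to 3225 CPM in WT and 2909 to 4515 CPM in cKO). Higher in every cKO library were peritoneal macrophage markers (82.0 to 116 against 21.2 to 44.0 CPM), B cell markers (64.2 to 109 against 33.4 to 43.2 CPM) and dendritic cell markers (10.4 to 13.3 against 3.14 to 7.45 CPM). Mesothelial markers had 0.274 to 1.01 CPM in cKO and 0 to 0.0682 CPM in WT. Of the 6 dendritic cell markers, 1 was above 1 CPM in every WT library and 4 in every cKO library, and of the 5 mesothelial markers 0 in either. The part of such cells was not tested. On day 7 C4b had 0.469, 1.05 and 0.207 CPM in WT and 0.353, 0.644 and 0.367 CPM in cKO, which overlapped. In peritoneal macrophages, where C4b was abundant, the cKO difference was 0.02 on the log2 scale with a 95% interval from -0.71 to 0.75.

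C4b fell in the double KO of Irf7. Irf7 encodes a transcription factor of the type I interferon response. C4b had 0.878, 1.43 and 1.96 CPM in the Irf7 double KO against 5.38 to 13.96 CPM in the 9 cKO libraries (log2 difference -2.60, SE 0.32, edgeR adjusted p = 9.00e-06), with no overlap and under every alternative. It had 11.3, 14.8 and 20.0 CPM with Sting (log2 fold change 0.84, SE 0.24, edgeR adjusted p = 0.00811) and 11.1, 12.1 and 18.3 CPM with Mavs (log2 fold change 0.68, SE 0.24, edgeR adjusted p = 0.0794). Both ranges overlapped that of cKO. The Sting call was lost without Sting replicate 3 (edgeR adjusted p = 0.121) or against the cKO of set 2 alone (0.177), and the Mavs difference was called without cKO set 2 replicate 3 (0.0496). Of the 5 interferon-induced genes, 4 rose with Sting, none was called with Mavs, and with Irf7 1 rose and 1 fell, the latter being Irf7 itself (98.3 to 112 against 249 to 470.2 CPM). Stromal markers were higher in the Sting (183 to 229 CPM) and Mavs (95.1 to 338 CPM) double KOs than in any cKO library of the sets (27.5 to 81.3 CPM), and their part was not tested. In the Irf7 double KO neutrophil markers (89.6 to 128 CPM) were below those of every cKO library (162 to 360 CPM). The same held in the Mavs double KO (63.4 to 128 CPM). Both H3.3 genes were called lower in the Irf7 double KO than in cKO (H3f3a by a log2 difference of -0.91, edgeR adjusted p = 4.67e-05, and H3f3b by -0.73, edgeR adjusted p = 0.00148). The part of these differences was not tested.

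**Figure D4:**
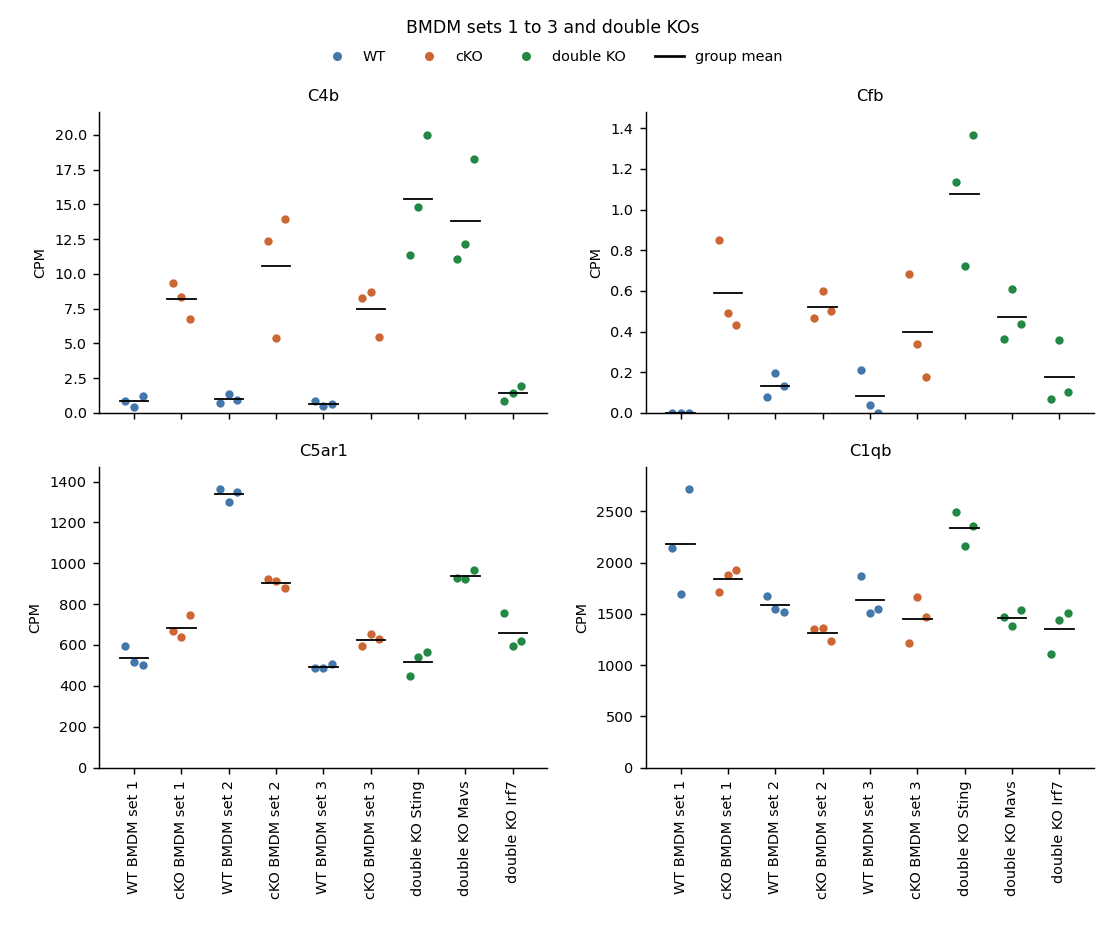
C4b, Cfb, C5ar1 and C1qb in BMDM sets 1 to 3 and the double KOs (y axis, CPM; x axis, groups; points are libraries, black lines are group means). C4b is 0.438 to 1.39 CPM in WT, 5.38 to 13.96 CPM in cKO and 0.878 to 1.96 CPM in the Irf7 double KO, and C5ar1 is lower in cKO than in WT in set 2 alone.

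Cfb, the protease gene of the alternative pathway, was called in the same sets at a lower level. In set 1 it had no count in WT and 0.852, 0.490 and 0.430 CPM in cKO (54 counts), at least 14.8-fold higher than the 3 counts over the group that a count of 0 allows (edgeR adjusted p = 1.37e-04). In set 2 it had 0.0758, 0.195 and 0.133 CPM in WT and 0.467, 0.597 and 0.4997 CPM in cKO (log2 fold change 1.92, SE 0.59, edgeR adjusted p = 0.0234), without overlap. In set 3 it had 0.212, 0.0390 and 0 CPM in WT and 0.681, 0.338 and 0.174 CPM in cKO (log2 fold change 1.96, SE 0.71, edgeR adjusted p = 0.0367), with overlap. The set 2 call was lost without WT replicate 1 (edgeR adjusted p = 0.11) or 3 (0.0632) or cKO replicate 2 (0.0631). The set 3 call was lost without WT replicate 2 (0.114) or 3 (0.123) or cKO replicate 1 (0.205) or 2 (0.0534). With the stranded counts neither call was kept (0.187 in set 2 and 0.34 in set 3). On day 3 Cfb had 31 counts in cKO and 2 in WT, a ratio of 15.5 (95% counting interval 3.93 to 133), which was too few to test.

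The Sting double KO had more Cfb than the mean cKO. It had 1.13, 0.721 and 1.37 CPM (log2 fold change 1.13, SE 0.38, edgeR adjusted p = 0.0232), which overlapped cKO. The call was lost without Sting replicate 1 (edgeR adjusted p = 0.0886) or 3 (0.151) and against the cKO of set 1 (0.209) or set 2 (0.0945) alone. With Irf7 Cfb had 0.0676, 0.357 and 0.103 CPM (log2 difference -1.38, edgeR adjusted p = 0.0926, or 0.0396 without Irf7 replicate 2).

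IFNγ moved all 9 genes in WT, where 40.1% of all genes were called: 7 rose (20% of all genes) and 2 fell (20.1%). In cKO, where 33.6% of all genes were called, 6 of 9 rose (17.2% of all genes) and 1 fell (16.4%). The median log2 fold change of the 9 genes was 1.16 in WT and 1.67 in cKO, beside -0.01 and -0.02 over all genes. C3, C4b and Cfb rose most. C3, the central component, went from 52.8, 53.4 and 42.9 CPM to 888, 1578 and 1167 CPM in WT (log2 fold change 4.61, SE 0.37, edgeR adjusted p = 8.02e-06) and from 47.9 and 67.8 CPM to 831 and 2014 CPM in cKO (log2 fold change 4.62, SE 0.45, edgeR adjusted p = 5.43e-05). Every IFNγ library was far above every untreated one, and the genotypes overlapped. Per kilobase, WT C3 thereby passed Cfp, C3ar1 and C5ar1 (236 ± 67.5 against 223 ± 3.20, 89.7 ± 19.4 and 57.4 ± 7.02 CPM per kb), though it did not differ from Cfp beyond the spread.

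C4b rose with IFNγ from 0.329, 0.212 and 0.0875 CPM to 8.04, 11.5 and 10.1 CPM in WT (log2 fold change 5.51, SE 0.46, edgeR adjusted p = 1.00e-05) and from 0.244 and 0.880 CPM to 11.5 and 16.7 CPM in cKO (log2 fold change 4.73, SE 0.48, edgeR adjusted p = 6.67e-05). Cfb went from 0, 0.106 and 0 CPM to 3.001, 2.68 and 2.53 CPM in WT (edgeR adjusted p = 7.06e-05) and from 0.0812 and 0 CPM to 6.04 and 6.12 CPM in cKO (edgeR adjusted p = 9.32e-05). Neither gene overlapped between untreated and IFNγ libraries. With 1 untreated count of Cfb in each genotype, the ratio of IFNγ to untreated was 82.4 in WT (95% counting interval 14.3 to 3303) and 138 in cKO (23.8 to 5528). After IFNγ Cfb was higher in both cKO libraries than in any WT one, which did not pass the test (log2 fold change 1.15, SE 0.40, edgeR adjusted p = 0.124). The summed dendritic cell markers were also higher with IFNγ (from 0.956 to 1.65 CPM to 50.5 to 74.9 CPM in WT and from 1.47 to 2.44 CPM to 24.8 to 36.4 CPM in cKO, with Siglech at 0). Of the 6 markers, 2 were above 1 CPM in every IFNγ library of each genotype and 0 in every untreated one. The part of such cells was not tested. The 2 libraries with conflicting labels bear on all of these calls: placed by title, none of the 16 IFNγ calls passed, and the cKO difference of C3 became 0.61 on the log2 scale. Placed by library name instead, none of the 16 calls was lost.

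**Figure D5:**
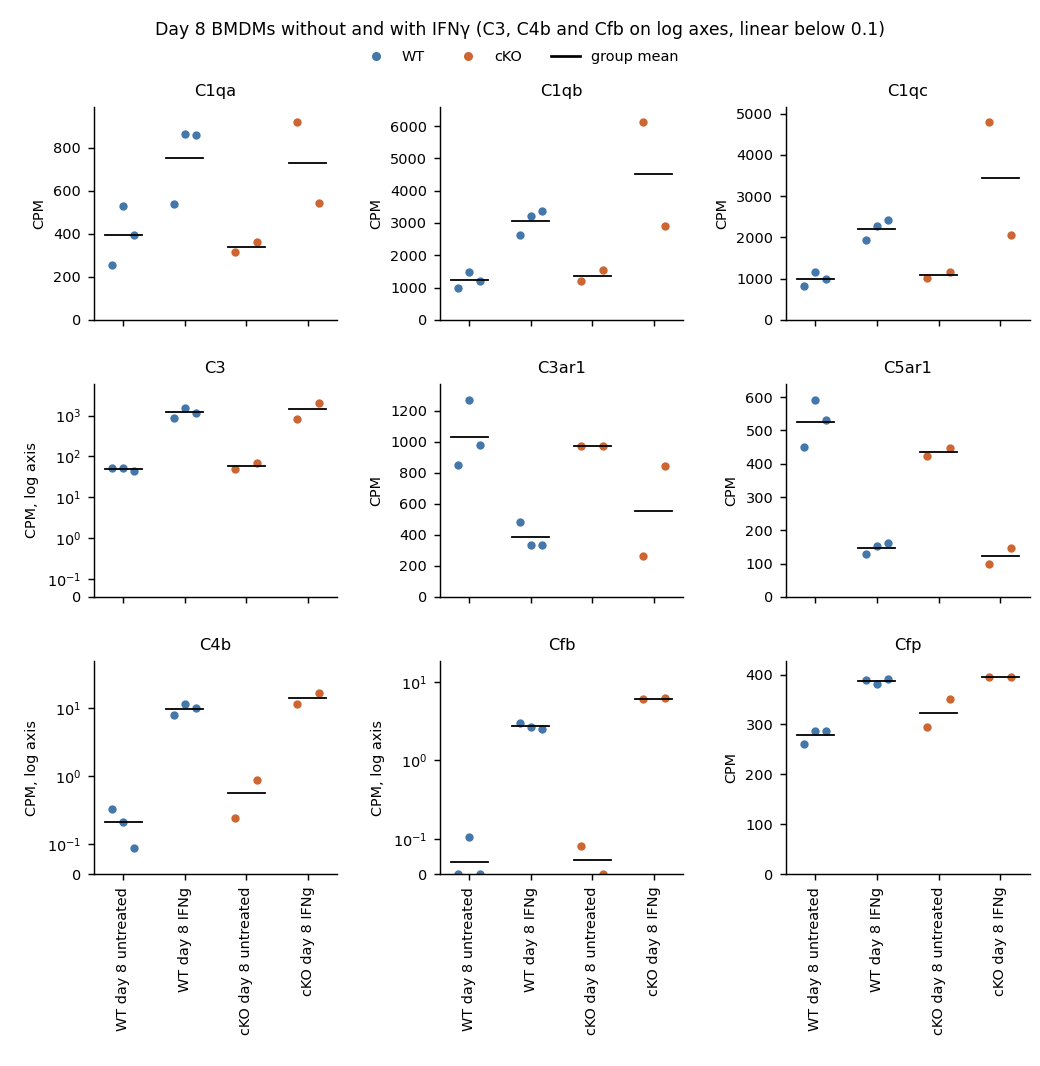
The 9 complement genes in day 8 BMDMs without and with IFNγ (y axis, CPM, on a log scale that is linear below 0.1 for C3, C4b and Cfb; x axis, groups; points are libraries, black lines are group means, n = 3 in WT and 2 in cKO). C3, C4b, Cfb and the C1q genes are higher in every IFNγ library and C5ar1 is lower, with 99.6 to 163 CPM against 424 to 593 CPM.

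C3 varied in the time course without a stable genotype call. On day 3 it had 156, 167 and 238 CPM in WT and 504, 299 and 337 CPM in cKO, which did not overlap but did not pass the test (log2 fold change 1.02, SE 0.39, edgeR adjusted p = 0.125). On day 5 it had 107, 62.1 and 62.4 CPM in WT and 296, 104 and 125 CPM in cKO (log2 fold change 1.18, SE 0.39, edgeR adjusted p = 0.144), and on day 7 231, 192 and 113 CPM and 221, 117 and 136 CPM, with overlap on both days. In cKO C3 fell from day 3 to day 7, without overlap (log2 fold change -1.26, SE 0.39, edgeR adjusted p = 0.0401), 1 of 8 genes where 14% of all genes were called and 7.7% fell. That call was lost without cKO day 3 replicate 1 (edgeR adjusted p = 0.171), 2 (0.0589) or 3 (0.0587) and without day 7 replicate 2 (0.163) or 3 (0.151). From day 3 to day 5 in cKO (3.59% of all genes) edgeR called 0 of 8, with 1 at an unadjusted p under 0.05 (C3) and 0 by DESeq2, and C3 was called without day 5 replicate 1 (0.0149). From day 5 to day 7 (0.0564%) edgeR and DESeq2 called 0 of 8, and 0 had an unadjusted p under 0.05. Neutrophil markers in cKO went from 2909 to 4515 CPM on day 3 to 94.3 to 291 CPM on day 7, and their part was not tested.

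In peritoneal macrophages C3 had 369, 607 and 712 CPM in WT and 1550.3, 654 and 1505 CPM in cKO, which overlapped (log2 fold change 1.14, SE 0.35, edgeR adjusted p = 0.297), while DESeq2 gave an adjusted p of 0.0498. T cell markers summed to 1.28 to 5.17 CPM in the WT and 6.76 to 20.3 CPM in the cKO libraries, and their part was not tested. In the BMDM sets C3 was between 46.0 and 131 CPM in WT and cKO, overlapped in each set and was not called, except that set 3 without WT replicate 1 gave an edgeR adjusted p of 0.0238.

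Cfp, the properdin gene, was called in few comparisons. In the sets it lay between 337 and 640.5 CPM in WT and cKO, with no call. The Sting double KO had 689.7, 614 and 710.4 CPM against 337 to 519.7 CPM in the 9 cKO libraries (log2 difference 0.66, SE 0.10, edgeR adjusted p = 2.01e-05), with no overlap and under every alternative. With IFNγ Cfp rose in WT from 261, 286 and 287 CPM to 389.7, 381 and 392 CPM (log2 fold change 0.48, SE 0.13, edgeR adjusted p = 0.013), without overlap, and the adjusted p was 0.0688 without untreated replicate 1. In cKO it had 295 and 351 CPM and 394 and 396 CPM (edgeR adjusted p = 0.181), and DESeq2 called it. With control antibody Cfp had 201, 187 and 194 CPM in WT and 261, 253 and 249 CPM in cKO, apart but not past the test (edgeR adjusted p = 0.141). Without WT IFNAR1 antibody replicate 3 Cfp was higher with IFNAR1 than with control antibody in WT (edgeR adjusted p = 0.00714, against 0.113 with it).

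C5ar1 fell with IFNγ in both genotypes and C3ar1 in WT. C5ar1, the receptor gene for C5a, went from 451, 593 and 531 CPM to 128, 152 and 163 CPM in WT (log2 fold change -1.83, SE 0.19, edgeR adjusted p = 4.03e-05) and from 424 and 446 CPM to 99.6 and 148 CPM in cKO (log2 fold change -1.80, SE 0.23, edgeR adjusted p = 2.73e-04), without overlap. C3ar1, the receptor gene for C3a, went from 851, 1273 and 979 CPM to 482, 338 and 338 CPM in WT (log2 fold change -1.42, SE 0.36, edgeR adjusted p = 0.00983). In cKO it had 977 and 975 CPM and 262 and 847 CPM, which did not pass the test (log2 fold change -0.81, SE 0.43, edgeR adjusted p = 0.181). There the IFNγ replicates stood far apart: without replicate 2 the edgeR adjusted p was 3.83e-04. Between genotypes after IFNγ, C3ar1 was called higher in cKO without replicate 1 (0.0111) and C5ar1 lower without replicate 2 (0.0387), each of which leaves 1 cKO IFNγ library that is taken to vary like the other groups. Stromal markers summed to 399 CPM in replicate 1 and 65.4 CPM in replicate 2, and their part was not tested.

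C5ar1 differed between WT and cKO in opposite directions in the BMDM sets. In set 1 it had 595, 517 and 503 CPM in WT and 669.6, 638 and 747 CPM in cKO (log2 fold change 0.35, SE 0.09, edgeR adjusted p = 0.00433). In set 3 it had 487, 485 and 504 CPM in WT and 595, 656 and 629 CPM in cKO (log2 fold change 0.35, SE 0.09, edgeR adjusted p = 0.00425). In set 2 it had 1363, 1301 and 1349 CPM in WT and 921, 913 and 881 CPM in cKO (log2 fold change -0.56, SE 0.09, edgeR adjusted p = 5.72e-05). Thus cKO was above WT in sets 1 and 3 and below it in set 2, with no overlap in any set, and both genotypes had higher levels in set 2 than in the other sets. Same-numbered WT libraries of sets 1 and 3 deviated together (correlations of 0.386, 0.316 and 0.143). The labels do not say whether these sets share animals, so they may not be separate results. A contrast added after these values were seen put the effect in set 2 at -0.91 relative to the mean of sets 1 and 3 on the log2 scale (SE 0.11, edgeR adjusted p = 2.32e-06), 1 of 9 complement genes where 27% of all genes were called and 14.7% were lower. C3ar1 in set 2 had 1809, 2009 and 1922 CPM in WT and 1583, 1509.9 and 1504 CPM in cKO, apart but not called (log2 fold change -0.32, SE 0.13, edgeR adjusted p = 0.0796), though it was called in a fit of set 2 alone (0.00154) and with no filter (0.0177). For C3ar1 the added contrast was called without replicate 1 of WT set 1 (0.00885) or of WT set 3 (0.0187), and for C3 (0.0446) and Cfb (0.0244) without the latter.

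Among the double KOs C5ar1 fell with Sting, to 450.4, 539 and 566 CPM against 595 to 921 CPM in the 9 cKO libraries (log2 fold change -0.49, SE 0.08, edgeR adjusted p = 3.33e-05), without overlap and under every alternative. With Mavs it had 926, 921 and 967 CPM (log2 fold change 0.36, SE 0.07, edgeR adjusted p = 0.00194), which is the level of cKO set 2 (921, 913 and 881 CPM). Against set 2 alone the Mavs difference was 0.05 on the log2 scale (edgeR adjusted p = 1). C3ar1 with Irf7 had 1102, 939 and 1046 CPM (log2 fold change -0.35, SE 0.11, edgeR adjusted p = 0.0404), which overlapped cKO. This call was lost without any single Irf7 library (edgeR adjusted p = 0.0726, 0.228 and 0.0968 without replicates 1, 2 and 3) and without 7 of the 9 cKO libraries: set 1 replicates 1 (0.0539), 2 (0.0546) and 3 (0.0543), set 2 replicates 1 (0.0646) and 3 (0.0519), and set 3 replicates 2 (0.0595) and 3 (0.0558). Against the cKO of set 3 alone its adjusted p was 0.838.

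The receptor genes were spread widely in the antibody experiment. Without antibody C5ar1 had 359.8, 37.1 and 91.0 CPM in WT and 462, 584 and 462 CPM in cKO, and C3ar1 had 586, 203 and 294 CPM and 709.9, 700.1 and 645 CPM. Neither overlapped and neither was called (edgeR adjusted p = 0.211 and 0.19), but both were without WT replicate 1 (0.0331 and 0.0419). With control antibody C3ar1 had 853, 837 and 801 CPM in WT and 779, 675 and 683 CPM in cKO. With IFNAR1 antibody WT had 275, 136 and 709 CPM of C3ar1 and 76.8, 51.1 and 517 CPM of C5ar1, where replicate 3 stood above the other two for both genes. Without it, both were called lower than with control antibody in WT (edgeR adjusted p = 0.00175 and 0.014). Without WT no antibody replicate 1, both were called higher with control antibody than without antibody in WT (0.0284 and 0.0493).

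In the time course C5ar1 was lower in all cKO than in all WT libraries on day 3 (588, 505 and 484 against 1108, 869 and 654 CPM), which did not pass the test (log2 fold change -0.74, SE 0.27, edgeR adjusted p = 0.11). C3ar1 had 1236, 943 and 829 CPM in WT and 800.1, 729.8 and 853 CPM in cKO on that day, with overlap. Neither receptor gene was called between days in WT or cKO.

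The other complement genes give the setting of these 9. Of 38 further components, regulators and receptors, 12 to 21 had enough counts in an experiment. In BMDM set 1, 7 of 21 rose and 2 fell in cKO, in set 2 6 rose and 5 fell, and in set 3 7 rose and 2 fell, with medians on the log2 scale of 0.25, -0.07 and 0.35 beside -0.03, -0.01 and -0.05 over all genes. The shares of all genes called were 34.7%, 21% and 34.9%, so the 9 of 21 called in sets 1 and 3 are near the background. Higher in cKO were 18%, 9.74% and 16.9% of all genes, and 11.3% were lower in set 2. The 7 of 21 that rose in sets 1 and 3, and the 6 that rose and 5 that fell in set 2, exceed these shares. The counts were not tested against the shares. C2, which pairs with C4 in the classical pathway enzyme, rose in all 3 sets (1.64, 1.39 and 2.09). So did Fcnb (2.49, 1.42 and 1.96) and Masp1 (2.40, 3.44 and 1.54). Itgax rose in sets 1 and 3 (1.39 and 1.41) and fell in set 2 (-2.70). Mean C2 was below 1 CPM in each of these groups, and mean Masp1 was at most 1.11 CPM. With IFNγ 2 of 12 rose and 2 fell in WT (40.1% of all genes called), where C1s1 and C1ra, the genes of the proteases bound to C1q, rose by 4.18 and 3.56. Those that fell were C5ar2 (-1.46) and Itgam (-0.63). In cKO 2 rose and 1 fell (33.6%), with C1s1 at 3.58, C1ra at 2.31 and C5ar2 at -1.17. In peritoneal macrophages 1 of 16 was called (0.971%), Vsig4, a macrophage receptor for C3 fragments, which fell by 1.88 on the log2 scale in cKO. All values in this paragraph passed edgeR's test at an adjusted p under 0.05 unless given as medians.

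Across group means, corrected for the level of each experiment, the C1q genes were most like each other among 11170 genes compared. The correlation over 27 groups was 0.98 between C1qb and C1qc, 0.94 between C1qa and C1qb and 0.93 between C1qa and C1qc. C3ar1 and C5ar1 were also close to each other (0.93), after Il1rap for C3ar1 (0.94) and Lrpprc for C5ar1 (0.93). C3 was nearest to Ric1, Mkrn1 and Cd274 (0.93 each). Cfb was nearest to C4b (0.95, over the 15 groups of the experiments in which Cfb was tested), whereas C4b over 27 groups was nearest to A530040E14Rik (0.89). Cfp was nearest to Glmp (0.86) and Mcoln1 (0.82). The points share libraries and scaling, so these values describe the groups and carry no test. The ratio of C1qb to C1qa in CPM varied all the same, with a median over libraries of 2.71 in the time course, 3.74 on day 8, 2.89 in peritoneal macrophages, 2.60 in the antibody experiment and 2.30 in the sets, and single libraries from 1.90 to 6.37.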

How the data were processed

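The authors trimmed paired-end reads with Cutadapt, aligned them to mm10 with STAR and deposited per-gene counts, which are raw read counts with 1 column without regard to strand and 2 stranded ones. The unstranded column was used, since reads on both strands then count, and rows without a gene were left out. Genes were kept by filterByExpr (count 10, total 15) within each of the 5 experiments, scaled by TMM and put through edgeR 4.0.16 (quasi-likelihood, R 4.3.3, limma 3.58.1), with Benjamini-Hochberg adjustment over all genes tested (12361 to 18083). DESeq2 1.42.0, other scalings, no filter, the stranded column, a replicate block and leaving out each library were the alternatives. The 9 genes, 38 other complement genes, 5 interferon-induced genes and the cell type markers, as well as the tests, were chosen with earlier results of these data known, and some genes are not reported here. The text names the 9 genes throughout, and other genes as the called ones of the fixed lists with large changes or as the 3 nearest by correlation of group means. Same-numbered libraries deviated together (each correlation over 0.1) in cKO vs WT on days 3 and 7 and in peritoneal macrophages, in cKO between day 7 and days 3 or 5, with IFNγ in WT and with control antibody in WT, with no shared source stated. No 2 replicates agreed within counting noise (lowest chi-square per degree of freedom 3.33). On simulated counts for 1 cKO vs WT comparison in each experiment, 100 of 100 genes changed by 2 on the log2 scale were recovered, and of 100 changed by 1, 63 on day 3 (15442 genes), 40 in untreated day 8 BMDMs (12613), 67 in peritoneal macrophages (12192), 60 without antibody (16608) and 68 in BMDM set 1 (17362). The genes changed there were above 1 CPM on average, and all genes were given the same spread. Such recovery does not carry over to genes at lower levels, as C4b and Cfb in most cultured groups, or to genes with a wider spread. Counting intervals (95%) and the 3 counts that a count of 0 allows cover counting error only.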

Additional observations from a re-analysis of the deposited data

Results flagged for a closer look

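The effect of cKO on C5ar1 differed between the BMDM sets. The contrast of set 2 with the mean of sets 1 and 3, added after the values were seen, was -0.91 on the log2 scale (edgeR adjusted p = 2.32e-06), with 3 of 3 cKO libraries below all WT libraries in set 2 and 3 of 3 above them in sets 1 and 3. Whether sets 1 and 3 share animals is not stated, so they may not be separate results.

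C3ar1 in cKO less WT was 0.92 on the log2 scale without antibody and -0.22 with control antibody, with no overlap between genotypes in either arm. This difference between the arms was not tested.

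Of the 2 cKO libraries of day 8 with conflicting labels, the one titled untreated but named IFNγ had 1474 CPM of C3, 12.9 CPM of C4b and 3.16 CPM of Cfb, where the highest untreated libraries of the groups had 67.8, 0.880 and 0.106 CPM. The other, titled IFNγ but named untreated, had 61.7 CPM of C3, 0.476 CPM of C4b and 0.0952 CPM of Cfb. Neither was put in a group.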

How the results depend on the processing

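Of 261 tests of complement genes 44 were called, of which 11 held under every alternative (C4b in sets 1 to 3 and with Irf7, C5ar1 in sets 1 to 3, in the added contrast and with Sting, Cfb in set 1 and Cfp with Sting) and 33 were lost under at least 1, while 58 tests not called were called under at least 1. The added contrast is counted here, although it was chosen after the C5ar1 values were seen and reuses the libraries of sets 1 to 3. Its adjusted p is therefore no separate support. No called value changed sign, and 198 of 3082 fits of tests called in neither had the other sign. Depth limits C4b and Cfb, which are below 2 CPM in most WT groups. The cause of the changes below was not tested.

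Complement genes called in cKO vs WT on days 3, 5 and 7 numbered 1, but 5 with no filter, 2 with the replicate block, 0 with the stranded column and 3 in fits of only the groups compared. In WT between days there were 3, but 6 with DESeq2, 7 with no filter, 6 with the block and 1 with only the groups compared, and in cKO 1, but 3 with DESeq2 and 5 under each of the other 3 settings. The 16 IFNγ calls became 0 when the 2 conflicting libraries were placed by title, and none was lost when they were placed by library name. Those of C3, C4b, Cfb and C5ar1 in both genotypes were lost under placement by title alone. Peritoneal calls went from 0 to 1 with DESeq2 or no filter, IFNAR1 against control antibody from 0 to 2 with either, control antibody against none from 0 to 3 with DESeq2 and 4 with no filter or only the groups compared, and the double KOs from 10 to 17 with no filter.

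Without single libraries the counts ran from 0 to 1 (days 3, 5 and 7), 2 to 4 (WT between days), 0 to 3 (cKO between days), 0 to 3 (day 8 cKO vs WT), 14 to 17 (IFNγ), 0 to 0 (peritoneal), 1 to 6 (antibody arms), 0 to 3 (IFNAR1 against control antibody), 0 to 2 (control antibody against none), 8 to 10 (sets), 7 to 10 (double KOs) and 0 to 1 (differences between fold changes).

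Beside the C1q genes in cKO between days 3 and 7, the replicate block gave calls for C3 in cKO vs WT on day 5 (adjusted p = 0.0432), between days 3 and 5 in WT (0.0187) and cKO (0.0265) and between days 5 and 7 in WT (0.0435), and for Cfp between days 5 and 7 in WT (0.0233), and it lost C1qa with IFNγ in cKO (0.0517). It changed no other call. There the 2 cKO pairs correlated at -0.187, and with the pairs crossed, a fit chosen after seeing the data, the IFNγ calls numbered 16 again. In fits of only the groups compared, the IFNγ calls of C1qa, C1qb and C1qc in cKO (0.115, 0.0832 and 0.0981) and those without antibody (0.0948 and 0.0845) were lost, as was Cfp with IFNγ in WT with no filter (0.113) and Cfb in set 3 with the bias-adjusted quasi-likelihood, also added later (0.0514). With the cKO of 1 set as the reference, calls were gained for C1qc with Mavs and C1qb with Irf7 against set 1 (0.0274 and 0.0481) and for C3ar1 with Sting and C5ar1 with Irf7 against set 2 (0.0222 and 8.25e-04).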
